A study of Bos taurus with 2 samples.

Results

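The genes described here are the MAGE (melanoma antigen) family genes MAGEB3, MAGEB5, MAGED1, MAGED2, MAGEE2, MAGEF1, MAGEH1 and MAGEL2, together with PRAME, on bovine expression arrays of muzzle RNA. They were chosen by gene name, and every probe carrying 1 of these names was kept, whatever its signal. Of the 9 genes sought, 7 had probes, 17 in all out of the 43639 probes on the array. MAGEL2 and MAGEB5 were not analysed here. The muzzle RNA came from 1 light-muzzle and 1 dark-muzzle HanWoo, the native Korean cattle, labelled with a yellow and a black nose. Both animals were labelled as females of 30 months, and the methods of the study describe each as a single representative cow. The front part of the muzzle was taken, a tissue of epidermis, glands, connective tissue and muscle. With 1 array per muzzle color, each difference below is a difference between 2 animals with no replicate check, and no test was made.

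MAGE proteins share the MAGE homology domain, through which they bind ubiquitin ligases and change which proteins those ligases mark. The family is divided into a group that is mostly silent outside the testis and is switched on in melanoma and other tumors, to which the MAGEB genes belong, and a group that is expressed in many adult tissues, which includes MAGED1, MAGED2, MAGEE2, MAGEF1, MAGEH1 and MAGEL2. PRAME is not related to MAGE by sequence. It encodes a leucine-rich repeat protein, found as an antigen in melanoma, that can serve a cullin ligase and repress signaling by retinoic acid receptors.

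On these 1-color arrays each RNA is read alone, and the value of a probe is a processed signal, an intensity from which background has been subtracted. The software that made it also gives an error for each spot, which follows the signal after the ± sign below and covers that spot only, not the spread between cows. A log2 ratio is the log2 signal of the dark muzzle minus that of the light muzzle after both were shifted by the 75th percentile of their array (1144 in the light muzzle and 1137 in the dark muzzle). A probe was called 2-fold higher or lower from a log2 ratio of 1 or -1. The processed signal was well above background for 78.8% of noncontrol spots in the light muzzle and for 81.9% in the dark muzzle, and no noncontrol spot was saturated (0 on each array). Probes of 1 gene are numbered in order of their signal in the light muzzle, and levels of different probes are not compared, since probes differ in how they bind.

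Of the 17 probes, 15 were well above background in both cows, 1 only in the dark muzzle and 1 in neither. Among the 16 probes with a ratio or a bound, the dark muzzle was at least 2-fold lower on 4 (25%) and at least 2-fold higher on 1 (6.25%). Over all 36630 such probes of the array, 7.17% were at least 2-fold lower and 9.76% at least 2-fold higher. The lower probes belonged to MAGEE2, MAGEF1 and MAGEH1, and the higher probe to MAGEB3. Among the 15 probes measured in both cows, 4 were 2-fold lower and 1 was 2-fold higher, against backgrounds of 6.8% and 8.43% of such probes on the array. Of the 15, 14 had a ratio below 0, the exception being MAGEB3. The median over all such probes of the array was 0.0038, so nearly as many lay below 0 as above it. The 14 probes are not separate results, since they belong to MAGED1, MAGED2, MAGEE2, MAGEF1 and MAGEH1 only. Averaged per gene, 1 of 7 genes (MAGEE2) was 2-fold lower and 1 (MAGEB3) 2-fold higher, against 7.64% and 9.34% of all genes. Over the 7 genes the median log2 ratio was -0.30, beside 0.017 over all 23161 genes or accessions with a value.

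**Figure D1:**
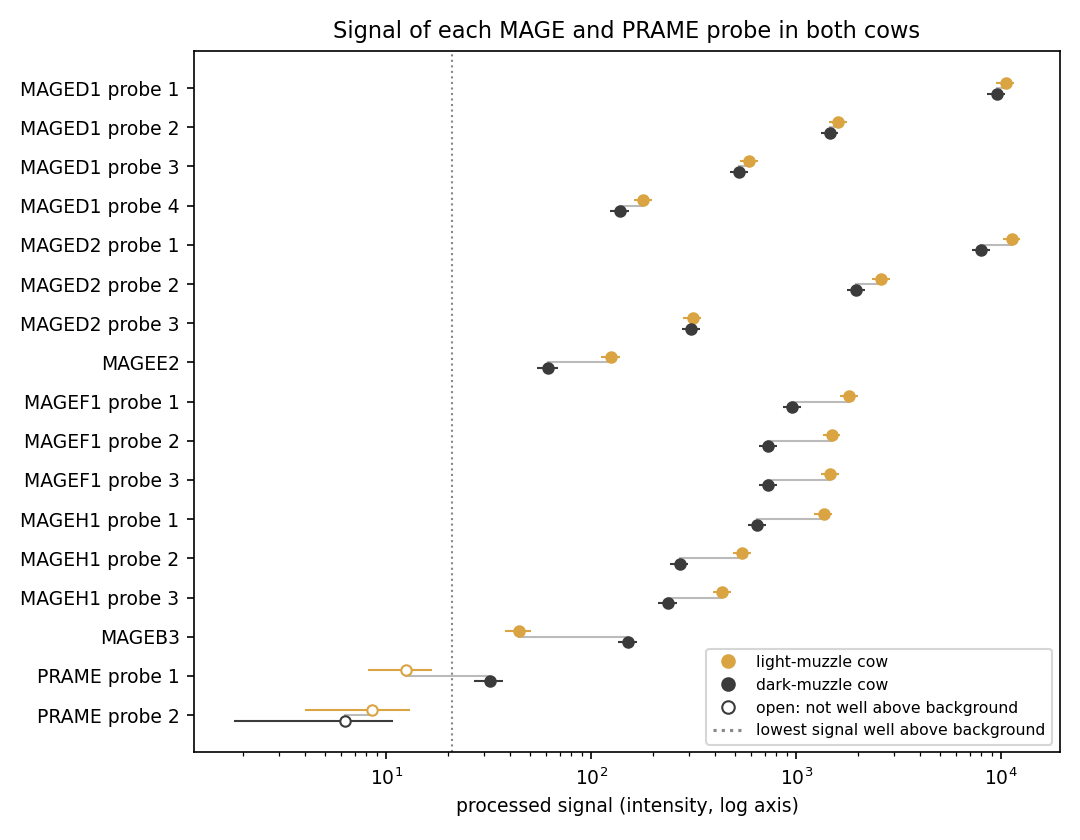
Processed signal (intensity, log axis) of the 17 probes in the light muzzle and the dark muzzle, with bars for the error of the spot. The pairs of points of MAGEE2, MAGEF1 and MAGEH1 stand apart with the dark muzzle on the left, those of MAGED1 and MAGED2 lie close together, MAGEB3 runs the other way, and of the PRAME points only the dark-muzzle one of its first probe, at 32.0, lies above the lowest signal that counts as well above background (dotted line).

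MAGEF1 was about 2-fold lower in the dark muzzle on every one of its 3 probes. MAGEF1 is a MAGE protein that joins the ligase NSMCE1 and directs it against the iron-sulfur assembly factor MMS19. The first probe read 1814 ± 182 in the light muzzle and 955 ± 95.7 in the dark muzzle. The second read 1492 ± 149 and 729 ± 73.1. The third gave 1466 ± 147 in the light muzzle and 730 ± 73.1 in the dark muzzle. The spot errors of the cows did not overlap on any of these probes. The log2 ratios were -0.92, -1.02 and -0.998, with a mean of -0.98, which is a signal 1.97-fold lower in the dark muzzle. The SD between the 3 probes was 0.056, and 93.3% of the 3050 transcripts with at least 3 measured probes had a larger one. Different probes of 1 transcript share the RNA of the animal, so this spread says nothing of the spread between cows.

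MAGEH1, a short MAGE protein of the widely expressed group, was lower to nearly the same degree. Its first probe had a signal of 1358 ± 136 in the light muzzle and 643 ± 64.6 in the dark muzzle. The second fell from 546 ± 54.7 to 270 ± 27.3 and the third from 436 ± 43.9 to 236 ± 24.1. All of them were lower in the dark muzzle by more than the spot errors. The log2 ratios were -1.07, -1.01 and -0.88, a mean of -0.99 (SD between probes 0.10), or 1.98-fold lower. For both MAGEF1 and MAGEH1 the probes therefore lay on either side of the 2-fold threshold: -1.02, -1.01 and -1.07 were just inside it, and -0.998, -0.92 and -0.88 just outside.

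MAGEE2 had a single probe. Its signal was 125 ± 13.1 in the light muzzle and 61.7 ± 7.40 in the dark muzzle, a log2 ratio of -1.01 with a spot error of 0.23. This was again a difference of 2.01-fold, larger than the spot errors. The gene encodes a MAGE protein of the group expressed outside the testis. The dark-muzzle signal was 1.60 on the log2 scale above the lowest level that counted as well above background. With normexp background correction, another way of removing background, the log2 ratio was -0.54, no longer 2-fold. That setting also adds an offset of 50 to each signal, which by itself narrows the ratios of low signals.

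MAGED1 and MAGED2 were less different between the cows. MAGED1, also called NRAGE, binds the neurotrophin receptor NGFR and takes part in apoptosis. Its first probe read 10512 ± 1051 in the light muzzle and 9493 ± 949 in the dark muzzle. The second read 1601 ± 160 and 1459 ± 146, and the third 589 ± 59.1 and 527 ± 52.9. The dimmest read 179 ± 18.7 in the light muzzle and 138 ± 14.7 in the dark muzzle. On the first 3 probes the spot errors of the cows overlapped, and on the dimmest they did not. The log2 ratios were -0.14, -0.13, -0.15 and -0.37. Their mean was -0.20 (SD between probes 0.12), 1.15-fold lower in the dark muzzle.

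MAGED2, which is needed for salt uptake in the fetal kidney, had a mean log2 ratio of -0.30 over 3 probes. The first fell from 11265 ± 1126 in the light muzzle to 7995 ± 800 in the dark muzzle. The second fell from 2601 ± 260 to 1957 ± 196. The third read 312 ± 31.8 and 307 ± 31.3, well within the errors of the spots. Thus the log2 ratios of the first and second probes, -0.49 and -0.40, were about 2 spot errors in size, and that of the third was -0.015. The sign of the third probe turned to 0.0086 under loess normalization and to 0.080 under normexp background correction. The SD between the 3 probes of MAGED2 was 0.25, and 37.9% of transcripts had a larger one.

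**Figure D2:**
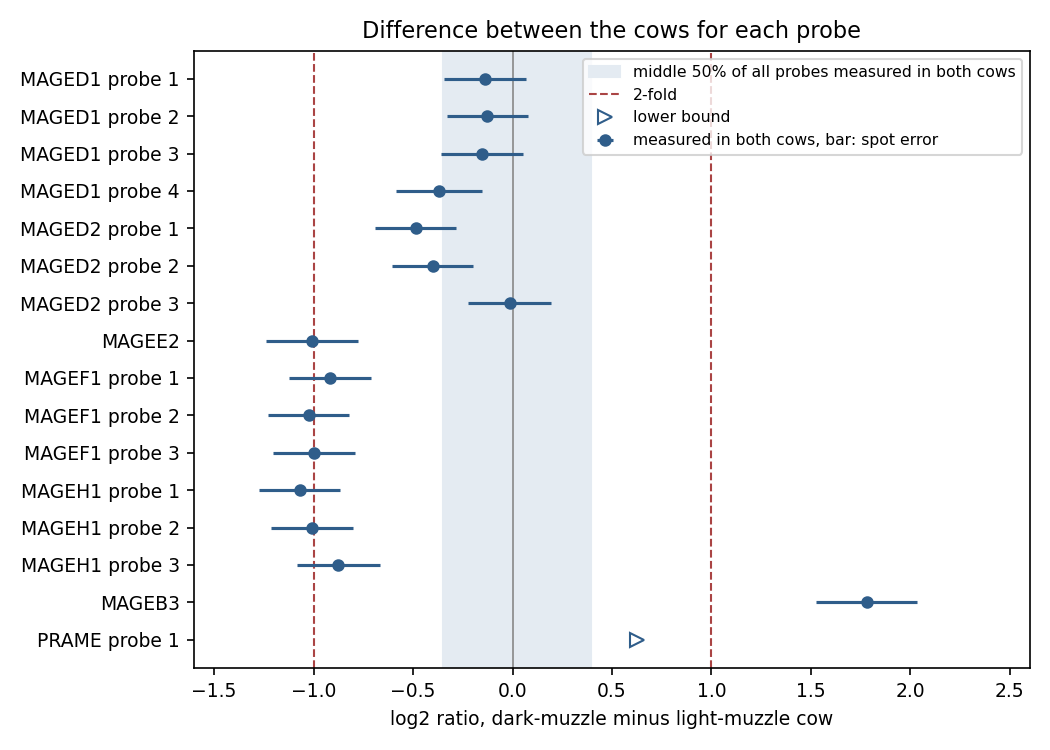
Log2 ratio of each probe (dark-muzzle minus light-muzzle cow), with bars for the combined error of both spots, dashed lines at 2-fold and a band from -0.35 to 0.40 that holds the middle of all probes measured in both cows, from lower to upper quartile. The 7 probes of MAGEE2, MAGEF1 and MAGEH1 lie between -1.07 and -0.88, apart from the 7 probes of MAGED1 and MAGED2 between -0.49 and -0.015, and MAGEB3 lies at 1.78.

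The genes measured in both cows are grouped here by their ratios after these were seen, so a gap between the groups is not a separate result. Under normexp background correction the gap was small, with MAGEE2 at -0.54 and the first probe of MAGED2 at -0.44. The 7 probes of MAGEE2, MAGEF1 and MAGEH1 ranged from -1.07 to -0.88, and each was 4.23 to 5.23 spot errors from 0. The 7 probes of MAGED1 and MAGED2 ranged from -0.49 to -0.015, and none was more than 2.38 spot errors from 0. Set among all 33451 probes measured in both cows, the ratios of the first set lay between percentiles 6.04 and 8.48, and those of MAGED1 and MAGED2 between percentiles 18.3 and 48.6. For scale, the SD of the log2 ratio had a median of 0.049 between repeated spots of 36 probes and of 0.18 between different probes of 7661 transcripts. Spots lying around each member spot, 30 to 74 of them, had median log2 ratios from -0.079 to 0.15. A fault of single spots was not tested.

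MAGEB3 had the higher level in the dark muzzle, by more than 2-fold. It belongs to the group of MAGE genes that is normally expressed in the testis. Its single probe carries the accession XM_002700267, which the RefSeq table used here does not list, so its name rests on the study's own pairing of accession and gene. The signal was 44.3 ± 6.25 in the light muzzle and 151 ± 15.7 in the dark muzzle. The dark-muzzle signal was thus 3.43-fold higher, a log2 ratio of 1.78 with a spot error of 0.25. Of all probes measured in both cows, 3.15% had a higher ratio. The light-muzzle signal was only 1.09 on the log2 scale above the lowest level well above background. Under normexp background correction the log2 ratio of MAGEB3 was 1.08, and under the other alternatives it lay between 1.68 and 1.78.

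PRAME was close to background in both cows. Its first probe read 12.4 ± 4.31 in the light muzzle, not well above background, and 32.0 ± 5.20 in the dark muzzle, where it was well above background. Set against 20.8, the lowest light-muzzle signal that passed the background limit, the dark muzzle was at least 1.54-fold higher for PRAME, a log2 ratio of 0.63. The second probe read 8.51 ± 4.50 and 6.30 ± 4.50, below the background limit in both cows. The bound on the first probe was 0.26 under quantile normalization and 0.25 under loess normalization, and with no filter on dim probes its log2 ratio was 1.37.

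Some other features of the same arrays shifted in this range of signals, and some did not. A spike-in control transcript had a median signal of 8.43 over its 32 spots in the light muzzle and of 31.9 in the dark muzzle, a log2 ratio of 1.89, and was well above background on 0 and 30 of its spots. The 8 spike-ins well above background on all their spots had log2 ratios from -0.37 to 0.012. The dimmest of them had median signals of 92.8 in the light muzzle and 93.5 in the dark muzzle, with a ratio of 0.012. The probes of ZNF280BY, a gene placed on the Y chromosome, had light-muzzle signals from 30.2 to 150 and log2 ratios from -0.19 to 0.12. Over the whole array, the dark muzzle alone passed the background limit on 2260 probes and the light muzzle alone on 922, while negative control spots had median signals of 4.92 in the light muzzle and 4.82 in the dark muzzle. The part of this shift in the values of PRAME and MAGEB3 was not tested.

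The identity of the PRAME probes also has a limit. Both carry the accession NM_001077979, which RefSeq lists under LOC528601 with PRAME as a synonym and places on the Y chromosome in the ARS-UCD2.0 assembly, whereas the labels give both cows as female. PRAME genes form a multigene family in cattle, so signal from a related copy cannot be told apart here. Of 19 probes of 10 genes placed on the Y chromosome, those of PRAME included, 11 were well above background in neither cow, among them those of SRY, DDX3Y, EIF1AY and USP9Y. The probe of ZFY and the 5 probes of ZNF280BY were well above background in both cows. The remaining 2, the first of PRAME and 1 of PLCXD1, passed the limit in the dark muzzle alone. No probe carried GU144301, the accession that the study gives for PRAME. The study lists PRAME as lower in the dark muzzle, the opposite direction to the bound on the first probe here. It also reports RT-PCR in more cows, with patterns similar to its array for the genes it lists.

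The other genes with a MAGE homology domain were few on the array. Of 21 sought, 6 had probes and 4 gave a value, with none at least 2-fold higher or lower (0 in each direction) and a median log2 ratio of -0.33, which moved to -0.0083 under normexp background correction and to 0.026 with only probes measured in both cows. MAGED4B, a relative of MAGED1, had 3 probes measured in both cows, and all were lower in the dark muzzle. Their signals fell from 6639 to 3971, from 492 to 295 and from 121 to 81.4, log2 ratios of -0.73, -0.73 and -0.57. Another probe of MAGED4B ran the other way, from 5.40 in the light muzzle, under the background limit, to 42.3 in the dark muzzle, at least 2.04-fold higher. Necdin (NDN), which restrains cell division in neurons, had signals of 753 and 939 on 1 probe and of 90.6 and 153 on the other, a mean log2 ratio of 0.55. NSMCE3, the MAGE subunit of the SMC5/6 DNA repair complex, had a mean of 0.026 from probes between -0.19 and 0.25. MAGEB4 passed the background limit in the light muzzle alone, with 32.7 against 4.70, which makes the dark muzzle at least 1.60-fold lower. MAGEA11 and MAGEB16 were not well above background in either cow. Within the testis group, then, MAGEB3 was higher and MAGEB4 lower in the dark muzzle.

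Of the ubiquitin ligases and the deubiquitinase that MAGE proteins are known to bind, 5 of 8 were measured and 0 passed 2-fold, with a median log2 ratio of -0.26. PJA1, the ligase Praja that MAGED1 binds, had 3 probes that disagreed. They went from 1132 to 551, from 125 to 67.0 and from 54.2 to 72.8, log2 ratios of -1.03, -0.89 and 0.43 with a mean of -0.50. TRIM27, a partner of MAGEL2, had a ratio of -0.30 and PJA2 one of -0.26. NSMCE1, the partner of MAGEF1 and of NSMCE3, had signals of 12898 and 12393 on its brighter probe and a mean ratio of 0.019, so it did not share the lower value of MAGEF1. LNX1 had a ratio of 0.10. The SMC5/6 complex (4 of 6 genes measured, median 0.022), the WASH and retromer genes through which MAGEL2 acts (5 of 8, median -0.0043) and the iron-sulfur assembly genes (5 of 7, median -0.074) had 0 genes past 2-fold. The medians of the SMC5/6 and the WASH and retromer genes changed sign under some alternatives (-0.060 to 0.070 and -0.025 to 0.079). NGFR, the receptor that MAGED1 binds, was lower in the dark muzzle, with a log2 ratio of -1.92 from probes at -1.73 and -2.11 and a further probe dim in both cows.

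Some of the genes that PRAME is known to act with were measured in both cows. The cullin 2 ligase, which PRAME can serve, had all of its 5 genes measured, 4 of them with a ratio above 0, and a median of 0.39. CUL2, its scaffold, had a mean ratio of 0.62 over 4 probes between 0.48 and 0.78. The adaptor genes ELOC and ELOB had 0.71 and 0.39, RBX1 had 0.29, and VHL, another substrate receptor, had -0.27 on the probe measured in both cows, while its other probe passed the background limit in the dark muzzle alone, with a bound of 0.34. None of these gene means reached 2-fold (0 of 5), although 1 probe of ELOC had a ratio of 1.13. Of 8 retinoic acid receptor and Polycomb genes sought, 4 were measured: RARA (0.22), RARG (-0.096), RXRB (0.49) and EED (0.13). None reached 2-fold (0), and RARB, RXRA, EZH2 and SUZ12 had no matched probe. Among 7 targets of retinoic acid with a value the median log2 ratio was -0.015 (-0.078 to 0.39 under the alternatives). In the dark muzzle 2 of them were at least 2-fold higher: TGM2, a transglutaminase, at 2.73, and CYP26A1, which degrades retinoic acid, with a bound of 1.52. The bound of CYP26A1 rests on 1 of its 3 probes, and the other 2 were not well above background in either cow.

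**Figure D3:**
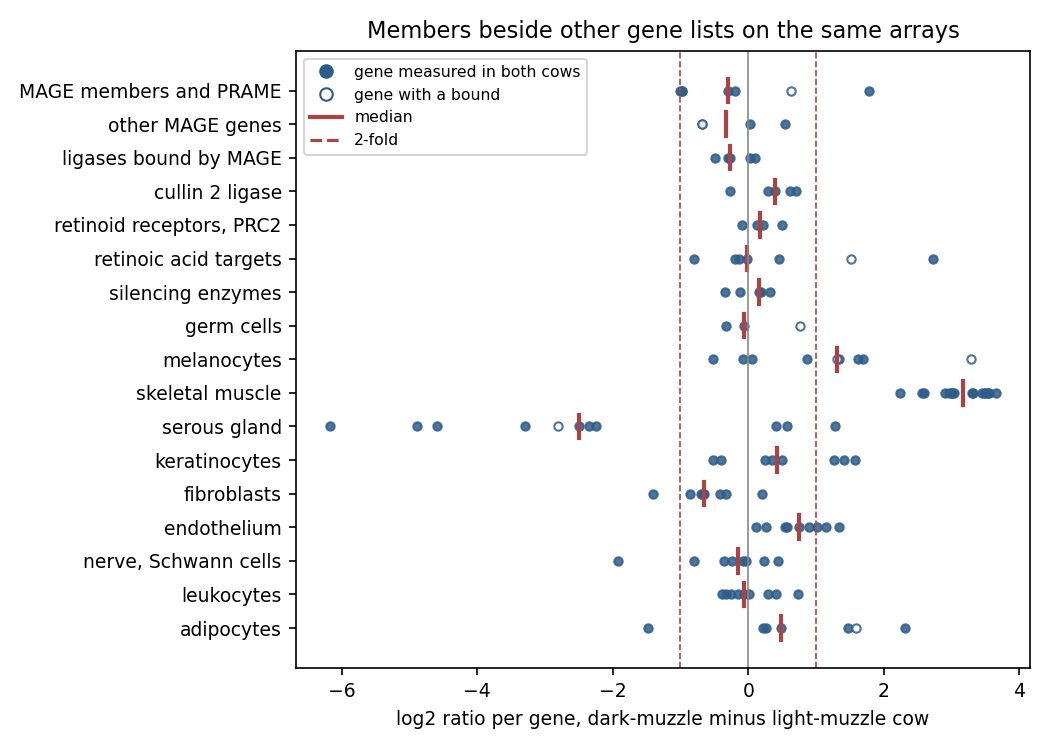
Log2 ratio per gene (dark-muzzle minus light-muzzle cow) for the members and for other gene lists on the same arrays, with open points for genes that have only a bound and a bar at the median of each list. The members lie from -1.01 to 1.78 with a median of -0.30, while the skeletal muscle list lies wholly above 2-fold (2.24 to 3.66) and most of the serous gland list below it (median -2.50).

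Marker genes of several cell types also had different levels in the cows, and they are set beside the members here. Keratinocyte markers, which define the muzzle surface, were present in both cows, with 8 of 12 genes measured and a median log2 ratio of 0.43. Of 14 melanocyte genes 9 had a value, and their median was 1.31 (0.83 to 1.34 under the alternatives), with TYRP1 highest at a bound of 3.28 and DCT lowest at -0.52. In the dark muzzle 5 of these 9 melanocyte genes were at least 2-fold higher and 0 at least 2-fold lower. Their summed level, the log2 of their added signals relative to the 75th percentile, was 1.38 in the light muzzle and 2.44 in the dark muzzle. In the dark muzzle all 16 measured skeletal muscle genes were at least 2-fold higher (2.24 for ACTA1 to 3.66 for CASQ1), and their summed level rose from 8.12 to 10.82 on the log2 scale. Of 11 serous gland genes with a value, 8 were at least 2-fold lower and 1 at least 2-fold higher. The summed level of the gland genes fell from 8.32 to 4.55. Fibroblast genes had a median of -0.65 over 8 genes, with POSTN lowest at -1.41 and LUM highest at 0.21. Endothelial genes had a median of 0.75, with 3 of 9 at least 2-fold higher. Nerve and Schwann cell genes had a median of -0.15, with 1 of 8 at least 2-fold lower. The median of leukocyte genes was -0.055 (0.011 under normexp background correction). Adipocyte genes had a median of 0.48, and of 7 with a value 3 were at least 2-fold higher and 1 at least 2-fold lower. The part of cell makeup in the members' values was not tested. In RNA from whole tissue, fewer cells of a type and less RNA per cell cannot be told apart.

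Position was compared only by gene order in ARS-UCD2.0, since the array was designed on another build. MAGED1, MAGED2, MAGEE2 and MAGEH1 lie on the X chromosome and MAGEF1 on chromosome 1. Over 278 genes of the X chromosome the median log2 ratio was 0.13 and 4.68% were at least 2-fold lower, beside 0.063 and 6.53% over 8612 autosomal genes. The 4 members placed on the X chromosome thus lay below its median. MAGEB3, at 1.78, was given no position here, since RefSeq did not list its accession, and was left out of this comparison. MAGED2 and MAGEH1 are near neighbors, and between them the array measured PFKFB1, an enzyme that regulates glycolysis, with a log2 ratio of 3.85, and APEX2, a DNA repair nuclease, with -0.41. The 6 genes with a ratio or a bound nearest to MAGEH1 had a median of -0.43, and those nearest to MAGED2 a median of -0.26. These 2 sets are not separate: each holds the other member, and both hold PFKFB1 and APEX2. Those nearest to MAGEE2 had a median of 0.82. Those nearest to MAGED1, among them its relative MAGED4B, had a median of -0.37. Next to MAGEF1 the median was -0.91, with EHHADH at -1.33 and MAP3K13 at -1.43 on one side and CLCN2 at -0.99 and THPO at -0.83 on the other, but LOC524771 at 2.80.

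**Figure D4:**
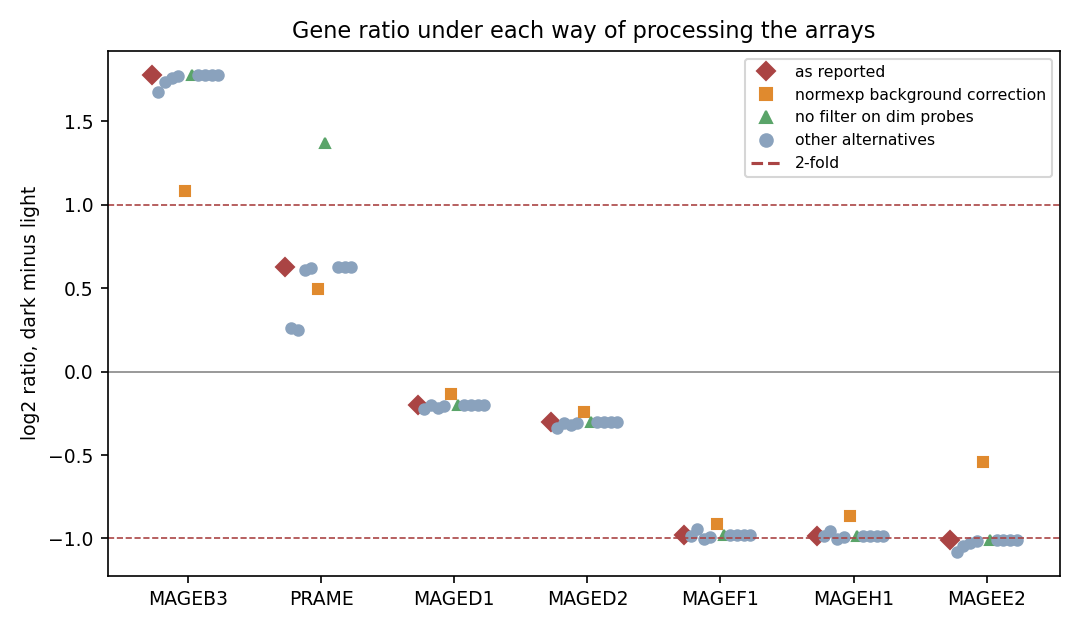
Log2 ratio of each of the 7 genes (dark-muzzle minus light-muzzle cow) as reported and under the alternative ways of processing the arrays, with dashed lines at 2-fold. MAGEF1 and MAGEH1 stay near -1 under every alternative (-1.01 to -0.87), MAGEE2 moves to -0.54 and MAGEB3 to 1.08 under normexp background correction, and PRAME ranges from 0.25 to 1.37.

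No gene ratio of a member changed sign under the alternatives of normalization, background, filter or table, 10 for each gene but PRAME, which had a value under 9. Some of these could not change a sign. Keeping outlier spots, for example, left every member ratio as it was. MAGEF1 lay between -1.0 and -0.92 and MAGEH1 between -1.01 and -0.87, so each crossed 2-fold only under the shift to the 50th percentile. MAGED1 stayed between -0.22 and -0.13 and MAGED2 between -0.34 and -0.24. Among the members lower in the dark muzzle, the ratios of MAGEE2 moved most, between -1.08 and -0.54. The smallest was that under normexp background correction with its added offset.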

How the data were processed

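The authors hybridised muzzle RNA of 1 light-muzzle and 1 dark-muzzle cow to 1-color Agilent bovine arrays on the same slide and scan, and deposited Feature Extraction 10.7.3.1 output. Its processed signal, as the file headers call it, is an intensity from which the authors' software had subtracted background. They also deposited log2 values per probe, made in GeneSpring, used only as an alternative. Groups follow the labelled nose color.

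Here log2 signals were shifted by the 75th percentile of noncontrol spots. Spots flagged as outliers on either array (13 flagged on each) were dropped from both, and repeated spots averaged. A probe well above background on 1 array only was given a bound against the other array's lowest level well above background, or the dim probe's own level if higher. Gene values average probes measured in both cows. Symbols came from RefSeq (ARS-UCD2.0; 20588 of 43639 probes) or, for MAGEB3, from the study. All member probes were named. Measured MAGE relatives, ligases, cullin 2, retinoid and Polycomb genes could be named, and of other lists the highest and lowest gene; neighboring genes, Y-chromosome genes, and genes dim in both cows were named after their values were seen. Members and lists were chosen with earlier results of these data known. The number of arrays limits the precision. Counting was tested on simulated data. Alternatives were quantile, loess (span 0.3), 50th percentile or no shift, normexp (offset 50, on median signals, since mean signals were not used here), filters, outliers kept, the log2 table, 1.5-fold and 3-fold thresholds and the brightest probe. Tools were limma 3.58.1 in R 4.3.3, Python 3.11.15, numpy 2.4.6 and pandas 2.3.3.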

Additional observations from a re-analysis of the deposited data

How the results depend on the processing

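Member probes at least 2-fold lower numbered 4 as reported, 2 under loess normalization, 2 under normexp background correction, 7 at 1.5-fold and 0 at 3-fold. Member probes at least 2-fold higher numbered 1 as reported, and 2 without a filter on dim probes or at 1.5-fold. The median log2 ratio over member genes, -0.30, was -0.64 with only probes above background on both arrays, which leaves out PRAME, and -0.49 with the brightest probe of each gene. Over all probes, those at least 2-fold higher numbered 3575, and 2132 under normexp, 6018 when dim probes were kept, 7226 at 1.5-fold and 1620 at 3-fold. Those at least 2-fold lower numbered 2626 as reported, 1563 under normexp, 5542 at 1.5-fold and 1169 at 3-fold. Apart from settings that act by construction, the cause of these changes was not tested. Thresholds and filters set the counts, and the normexp offset narrows the ratios of low signals. Of 159 member probe ratios recomputed, 153 moved by less than 0.18, the median SD between probes of a transcript, and none that was 2-fold reversed (0). No paired analysis was possible because each group holds 1 array. Signal over background limits MAGEB3, MAGEE2 and PRAME.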

Other observations

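Genes of testis germ cells were measured beside the testis-type MAGE genes. Of 13 listed, 9 had probes and 3 gave a value, while DDX4, DAZL, TEX101, MAEL, TNP1 and LDHC were not well above background in either cow. PRM1 had the highest log2 ratio, a bound of 0.76, and ACTL7A the lowest, -0.33. Of the DNA methylation and heterochromatin enzymes, by which testis genes are kept silent in other tissues, 5 of 14 gave a value and 0 passed 2-fold. DNMT1, which copies DNA methylation, was the lowest at -0.34 from 4 probes between -0.40 and -0.24. UHRF1, its cofactor, was the highest at 0.31, from 4 probes that disagreed (-0.91 to 0.77). CTCFL, a testis factor that can switch on MAGE genes in tumors, was dim in both cows, below the limit for a measured level.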
